A study of Mus musculus with 4 samples.

Results

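The interferon response genes followed here were Ifit1, Ifit3, Isg15, Irf1, Irf7, Oasl2, Bst2, Rsad2 and Ifi35, 9 of the 31054 features counted. They were chosen by symbol, and all 9 were present in each of the 4 count matrices. Their unique molecular identifiers (UMIs, which count captured mRNA molecules) were read in barcodes that held 500 or more genes and no more than 20% of UMIs from mitochondrial genes. Each gene was then described by library and by cell class.

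The study profiled single FACS-isolated mouse intestinal epithelial cells with 10x Genomics version 3 chemistry and a HiSeq 2500. There was 1 library for each of 4 groups: embryos at day 12.5 (E12.5), embryos at day 17.5 (E17.5), adults, and adults that had been irradiated. All 4 groups carried the Bmi1-GFP reporter genotype, so no library came from mice without it. The labels used here give no radiation dose, time after exposure, adult age, sex, number of pooled animals or sorting gate. With 1 library per group no difference could be set against a spread between animals, and no test was made. Every interval below is an exact 95% interval that covers counting error only. Stage, treatment, animal and library preparation cannot be told apart.

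Interferons are secreted alarm proteins that bind receptors on the cell surface and signal through Jak kinases. A complex that contains Stat2 and Irf9 then binds interferon-stimulated response elements and switches on antiviral genes. In the gut, epithelial cells are known to respond chiefly to interferon lambda, whose receptor is made of Ifnlr1 and Il10rb. Among the 9 genes, Irf7 and Irf1 are transcription factors of the pathway. Isg15 is a ubiquitin-like protein, and Ifit1 and Ifit3 bind or help to bind foreign RNA. Oasl2 belongs to the oligoadenylate synthetase family, Rsad2 (viperin) makes a nucleotide that stops viral RNA synthesis, and Bst2 (tetherin) holds budding virus at the membrane. Ifi35 is an interferon-induced partner of Nmi.

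The promoters are shown first because the members differ in which of 2 searched motifs they match exactly next to their starts. RefSeq promoter windows on GRCm38.p6, from 250 bases before to 50 after each start, held an entry for all 9 genes, with 2 for Irf1. An interferon-stimulated response element core was searched as TTTCNNTTTC and an interferon gamma-activated site as TTCNNNGAA, both on both strands. The first was found for 5 of the 9 genes (Ifit1, Ifit3, Isg15, Bst2 and Rsad2) and in 3.44% of all 32851 promoter windows. The second was found for 3 of the 9 (Irf1, Bst2 and Ifi35) and in 8.30% of all windows. Below are the 200 bases before the start, 5′ to 3′ on the gene's strand. The genes are the 5 with the first motif and Irf1 for the second. The windows of Irf7 and Oasl2 held neither. Capitals mark the motif matches, and a match on the opposite strand reads GAAANNGAAA.
Isg15 (chr4:156200819-156201018, minus strand): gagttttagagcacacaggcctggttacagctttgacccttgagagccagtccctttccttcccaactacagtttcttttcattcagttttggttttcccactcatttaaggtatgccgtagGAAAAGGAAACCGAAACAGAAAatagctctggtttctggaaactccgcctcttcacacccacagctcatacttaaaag
Ifit1 (chr19:34640689-34640888, plus strand): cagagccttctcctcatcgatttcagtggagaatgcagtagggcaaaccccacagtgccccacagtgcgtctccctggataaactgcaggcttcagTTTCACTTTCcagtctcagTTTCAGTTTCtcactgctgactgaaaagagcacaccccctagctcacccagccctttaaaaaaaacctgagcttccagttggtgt
Ifit3 (chr19:34583329-34583528, plus strand): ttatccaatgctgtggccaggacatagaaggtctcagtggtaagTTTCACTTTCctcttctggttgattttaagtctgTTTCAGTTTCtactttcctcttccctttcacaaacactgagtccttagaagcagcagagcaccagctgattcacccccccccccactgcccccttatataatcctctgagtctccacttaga
Bst2 (chr8:71537473-71537672, minus strand): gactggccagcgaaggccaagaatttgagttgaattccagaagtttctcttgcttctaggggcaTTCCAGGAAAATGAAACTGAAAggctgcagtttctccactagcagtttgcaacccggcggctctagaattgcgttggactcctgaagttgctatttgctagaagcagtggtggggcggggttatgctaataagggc
Rsad2 (chr12:26456453-26456652, minus strand): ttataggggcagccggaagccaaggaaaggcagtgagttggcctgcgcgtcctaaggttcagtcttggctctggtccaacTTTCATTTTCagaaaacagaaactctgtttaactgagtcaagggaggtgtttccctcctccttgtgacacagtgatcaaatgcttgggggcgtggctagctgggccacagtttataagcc
Irf1 (chr11:53769814-53770013, plus strand): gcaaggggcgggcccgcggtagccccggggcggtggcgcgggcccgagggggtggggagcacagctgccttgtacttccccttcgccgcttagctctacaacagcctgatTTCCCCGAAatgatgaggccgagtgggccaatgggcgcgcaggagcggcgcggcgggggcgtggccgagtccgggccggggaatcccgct
Isg15 held 3 overlapping matches between 78 and 66 bases before the start, counted from the first base of each match. In Bst2 the 2 response element matches overlapped each other, and only the one farther from the start also overlapped its TTCNNNGAA match. Ifit1 and Ifit3, both on chromosome 19, each held 2 separate matches, and Rsad2 held 1. The TTCNNNGAA match of Ifi35 lay after the start and is not printed. A match is a run of letters, not a measured binding site. Of 27 other interferon-induced genes with a promoter window, 12 held the first motif.

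In the GENCODE annotation of GRCm38 all 9 members are protein-coding. Isg15 lies at chr4:156199424-156200818, Oasl2 at chr5:114896936-114912234, Irf7 at chr7:141262706-141266481 and Bst2 at chr8:71534255-71537456. Irf1 lies at chr11:53770014-53778374 and Ifi35 at chr11:101448407-101458698. Rsad2 lies at chr12:26442746-26456452, Ifit3 at chr19:34583531-34588731 and Ifit1 at chr19:34640871-34650009. Ifit3 shared 27 of 411 stretches of 90 bases near its 3′ end with Ifit3b, so a few of its reads could have been lost or moved. The other 8 members shared none. Irf7, Irf1 and Ifi35 each overlap a gene on the opposite strand (Phrf1, Gm17334 and Gm11626), and whether counting used strand is not given in the sources used here.

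Depth and cell makeup differed between libraries. The filters and removal of likely doublets left 3031 to 4409 cells per library, and the median cell had 18081.5 UMIs (E12.5), 11003 (E17.5), 3607 (adult) or 8554 (irradiated adult). At E17.5, 3487 of 4409 cells were counted as epithelial. The others, and 35 mesenchymal-like cells at E12.5, were left out of epithelial sums; they met marker rules for pancreatic acinar, islet, smooth muscle, mesenchymal or mesothelial cells, which goes against the labelled cell type. Barcodes shared by pairs of libraries numbered 6 to 12. Levels are given as UMIs of the gene per 1000000 UMIs of the summed cells (CPM). A 3′ count does not scale with gene length, yet capture differs between genes, so members are compared across cells rather than with each other.

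In epithelial cells the 9 genes summed to 33.7 CPM (interval 32.5 to 35.0) in the E12.5 library and 99.97 CPM (97.5 to 102) in the E17.5 library. The adult library had 459 CPM (451 to 467) and the irradiated adult library 314 CPM (309 to 320). The intervals did not overlap between any pair of libraries. Of the antiviral effectors, Isg15, Oasl2 and Rsad2 had 7, 10 and 13 UMIs at E12.5. In the order E12.5, E17.5, adult and irradiated adult, Isg15 was at 0.09, 1.22, 90.2 and 33.3 CPM. Oasl2 stood at 0.12, 1.05, 43.8 and 26.2 CPM in the same order, and Rsad2 at 0.16, 1.62, 26.8 and 18.9 CPM. Of the transcription factors, Irf7 was at 0.29, 9.70, 116 and 85.0 CPM and Irf1 at 18.6, 30.4, 70.7 and 67.3 CPM. Irf1 was the member with the most UMIs at E12.5, while Irf7 had 24 there. Bst2 was at 6.84, 20.2, 40.5 and 24.0 CPM and Ifi35 at 1.33, 25.6, 51.9 and 47.3 CPM. Of the RNA-binding pair, Ifit1 was at 5.38, 9.78, 17.1 and 9.24 CPM, and Ifit3 at 0.92, 0.31, 1.81 and 3.15 CPM. Ifit3 was the only member lower at E17.5 than at E12.5, from 19 and 75 UMIs, and the only one higher in the irradiated than in the adult library.

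**Figure D1:**
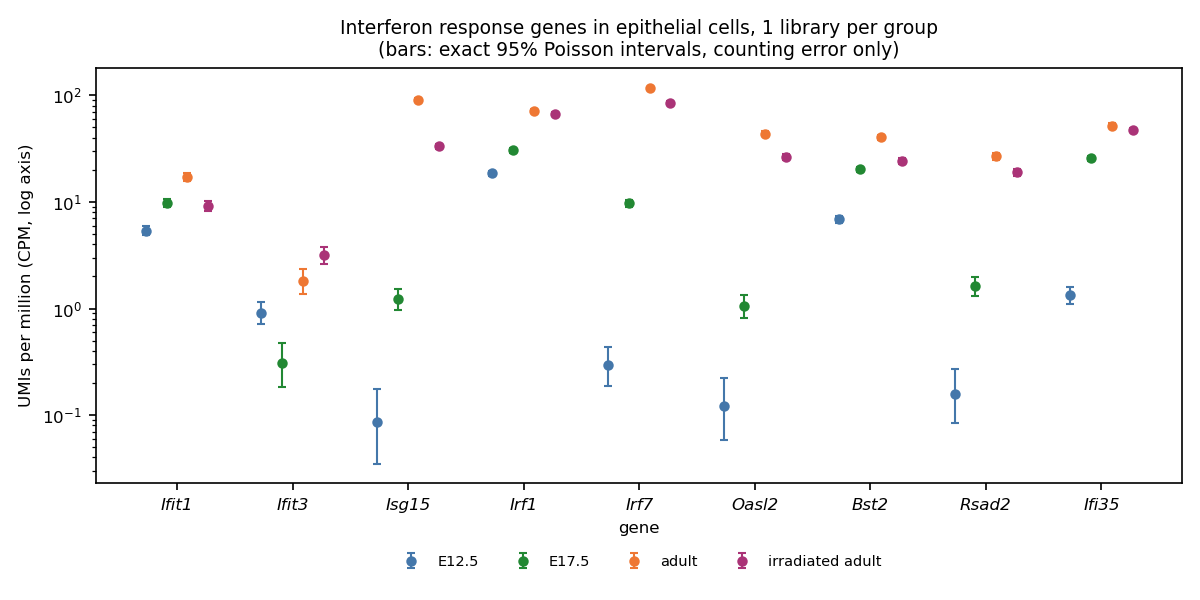
Level of each gene in epithelial cells (CPM, log axis) in the 4 libraries, 1 library per group, with bars for exact 95% Poisson intervals. Isg15, Irf7, Oasl2 and Rsad2 sit below 0.3 CPM at E12.5 and above 18 CPM in both adult libraries, while Irf1 lies between 18.6 and 70.7 CPM.

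Between E12.5 and E17.5, 5 of the 9 genes were at least 2-fold higher on the log2(CPM + 1) scale and none was at least 2-fold lower. Over all 16694 features with 10 or more UMIs in either library, 13.2% were past 2-fold higher and 14.5% past 2-fold lower. Ifi35 differed most, with a log2 ratio of 3.51 from 109 and 1594 UMIs, followed by Irf7 at 3.05 from 24 and 603 UMIs. Bst2 (1.44), Rsad2 (1.18) and Isg15 (1.03) were also past the threshold. Oasl2, at 0.87, was not, although its CPM ratio was 8.56 (4.37 to 18.7), since the added 1 CPM shrinks low genes. The Isg15 value rests in part on 1 enterocyte-like cell that held 25 of the 76 UMIs at E17.5. Without the richest cell of each library its log2 ratio was 0.76, which leaves 4 of 9 past the threshold. Dissociation early response genes, a list of immediate-early genes such as Fos and Atf3, moved over the same interval: 6 of 10 were past 2-fold higher, and their part in these values was not tested.

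From E17.5 to the adult library, 6 of the 9 genes were past 2-fold higher and none lower, against 12.5% of 15990 features higher and 12.6% lower. The log2 ratio was 5.36 for Isg15, 4.45 for Oasl2, 3.45 for Irf7, 3.41 for Rsad2, 1.19 for Irf1 and 1.11 for Ifit3. Ifi35 (0.99) and Bst2 (0.97) fell just short of the threshold, and Ifit1 was at 0.75. Tuft-like cells were named in the adult libraries and in neither embryonic one. Without them the adult level summed to 222 CPM in place of 459, and the same 6 genes were past 2-fold over E17.5, beside 11.7% of all features. Their log2 ratios were then 3.05 for Oasl2, 3.02 for Rsad2, 2.37 for Isg15, 1.91 for Irf7, 1.13 for Irf1 and 1.01 for Ifit3. Ifit1 changed sign, at -0.55 without tuft-like cells. Over the same interval 4 of the 10 dissociation early response genes were past 2-fold higher and 1 lower, with or without tuft-like cells, and their part in these values was not tested.

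The stage difference was also present within single classes. In enteroendocrine-like cells, which make gut hormones, the summed level was 129 CPM at E17.5 and 260 CPM in the adult. There, 6 members were past 2-fold higher (Isg15, Oasl2, Rsad2, Ifit3, Irf7 and Ifit1), beside 10.9% of features higher and 13% lower. A further 371 E17.5 cells, first named enteroendocrine, had been left unnamed, and their sum was 154 CPM. Irf7 (39.9 CPM) and Ifit1 (4.25 CPM) were higher in them than in the named E17.5 cells (27.4 and 3.16 CPM). So were Rsad2 (12.2 and 5.43 CPM), Irf1 (66.5 and 53.7) and Oasl2 (1.70 and 1.39). Isg15, Ifit3, Bst2 and Ifi35 were lower. The calls of Irf7 (log2 ratio 1.10) and Ifit1 (1.06) lean on those cells being left out. In the named E17.5 and adult enteroendocrine-like cells Rsad2 stood at 5.43 and 35.5 CPM, and Oasl2 at 1.39 and 20.9 CPM. In enterocyte-like cells, the absorptive lineage, the sum was 117 CPM at E17.5 and 336 CPM in the adult, where only 79 cells were named. All members but Ifit1 and Bst2 were past 2-fold higher there, 7 of 9, beside 10.6% of features higher and 16.4% lower. Ifit1 was instead at 25.8 CPM at E17.5 and 15.5 CPM in the adult, a log2 ratio of -0.70, and 21 of the 51 adult UMIs came from 1 cell.

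**Figure D2:**
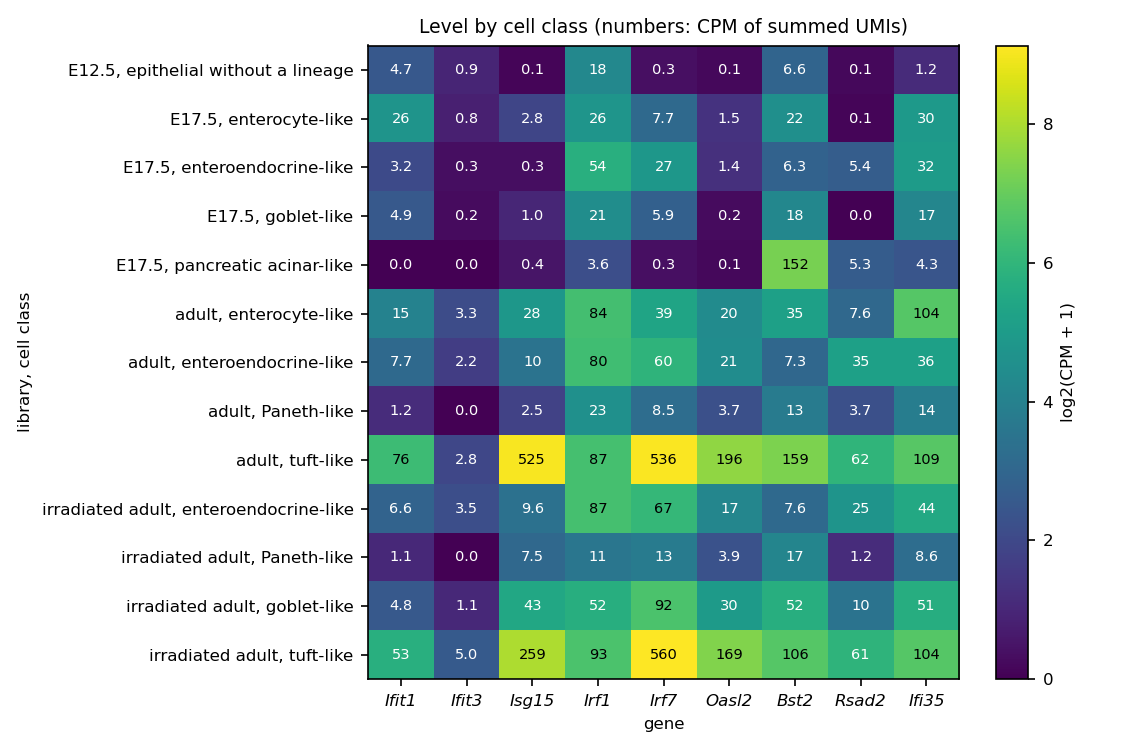
Level of each gene (colour, log2 of CPM + 1; printed number, CPM) in named cell classes of each library, from summed UMIs. Both tuft-like rows stand apart for Isg15, Irf7 and Oasl2, while Irf1 is between 80 and 93 CPM in all tuft-like, adult enterocyte-like and adult enteroendocrine-like rows.

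Adult tuft-like cells, the chemosensory lineage marked by Dclk1, Trpm5 and Avil, carried most of the summed signal, though not most of every member. They were 974 of 3597 cells (27.1%, 25.6 to 28.6) and gave 15.5% of UMIs, but 59.1% of all UMIs of the 9 genes and 90.1% of those of Isg15. Their share was between 60.6% and 71.4% for Bst2, Ifit1, Oasl2 and Irf7. It was 35.8% for Rsad2, 32.4% for Ifi35, 24.1% for Ifit3 and 19.0% for Irf1. Isg15 was at 525 CPM in them (505 to 547) and at 10.2 CPM in enteroendocrine-like cells of the same library, a ratio of 51.3 (43.0 to 61.7). Bst2 differed 21.8-fold (159 and 7.27 CPM), Ifit1 9.91-fold (75.9 and 7.66), Oasl2 9.36-fold (196 and 20.9), Irf7 8.93-fold (536 and 60.1) and Ifi35 3.03-fold (109 and 35.9). Those 6 of 9 genes were past 2-fold higher, beside 10.3% of 13571 features higher and 33.9% lower. Rsad2 was 1.75-fold higher (62.0 and 35.5 CPM, interval 1.502 to 2.03) and did not pass. For Irf1 the ratio was 1.08 (0.958 to 1.21) and for Ifit3 1.29 (0.613 to 2.57), both with intervals that include 1. The 2 classes thus had like levels of Irf1 within counting error while Irf7 was 8.93-fold apart.

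The same contrast was measured in the irradiated library, a separate set of cells. There 7 of the 9 genes were past 2-fold higher in tuft-like than in enteroendocrine-like cells, beside 9.79% of features higher and 29.2% lower. Isg15 was 27.1-fold higher (259 and 9.59 CPM), Bst2 13.9-fold, Oasl2 9.66-fold, Irf7 8.34-fold and Ifit1 8.10-fold. Ifi35 was 2.35-fold higher. Rsad2 was 2.40-fold higher, at 60.6 and 25.2 CPM, but 59 of its 97 UMIs lay in 1 tuft-like cell, and without that cell its tuft-like level was 23.9 CPM. Irf1 was again near parity, at 1.07 (0.897 to 1.27). Markers of immune cells were looked for in the tuft-like cells. T cell markers had no UMI (0 of 8 markers) in either library. B or plasma cell markers summed to 0.87 CPM in the adult (1 of 6 with a UMI) and had none in the irradiated library. Myeloid markers summed to 2.82 CPM (4 of 8) in the adult and 8.75 CPM (6 of 8) in the irradiated library, with C1qb and Tyrobp at 0 in both. Ptprc, the pan-leukocyte gene CD45, was at 213 and 250 CPM in tuft-like cells and 2.27 and 2.26 CPM in enteroendocrine-like cells of the adult and irradiated libraries, and its part in the contrast was not tested. Dissociation early response genes ran the other way, with 10 of 10 in the adult and 9 of 10 in the irradiated library past 2-fold lower in tuft-like cells. The median mitochondrial share per cell was 13.6% in adult tuft-like and 7.79% in adult enteroendocrine-like cells, and 15.5% and 4.57% in the irradiated ones. The part of either in the contrast was not tested.

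Most tuft-like cells had at least 1 of the genes detected, and a small set carried much more. After each cell was thinned to 2000 UMIs, 88.2% of adult tuft-like and 41.1% of adult enteroendocrine-like cells held a UMI of any of the 9 genes. At least 3 of the 9 genes were detected in 288 of 901 adult tuft-like cells (32.0%, 28.9 to 35.1) and 67 of 242 irradiated ones (27.7%, 22.1 to 33.8). Enteroendocrine-like cells reached 1.15% in the adult and 1.46% in the irradiated library. Over all epithelial cells it was 0 of 3447 for E12.5, which allows up to 0.087% when a count of 0 is read as at most 3 cells, and 0.0601% for E17.5. The adult library had 10.6% and the irradiated library 4.59%. Thinning left out 157 to 646 epithelial cells per library. Without thinning the adult tuft-like share was 56.7% at a median of 4112.5 UMIs, and the irradiated one 54.9% at 4484 UMIs. Without thinning, enteroendocrine-like cells reached 10.6% (adult) and 25.0% (irradiated), at medians of 3191 and 9265 UMIs. No cell class that should lack these genes was fixed, so the background from free RNA was not measured for these shares. An Isg15 UMI was present in 39.5% of thinned adult tuft-like cells and 2.53% of enteroendocrine-like cells, while for Irf1 the shares were 15.1% and 16.4%.

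One adult tuft-like cluster of 101 cells had Isg15 as its leading gene. Its members' levels are given as a description, since the clustering used these genes. Isg15 was at 2441 CPM, Irf7 at 886, Ifit1 at 470, Bst2 at 446, Oasl2 at 437 and Rsad2 at 347 CPM, while Irf1 was at 116 CPM. The other 873 adult tuft-like cells had 255 CPM of Isg15, 487 of Irf7, 162 of Oasl2, 20.3 of Ifit1 and 21.8 of Rsad2. So Ifit1 and Rsad2 were concentrated in the small cluster more than Irf7 or Oasl2. Its tuft markers summed to 11892 CPM, near the 12109 CPM of the other tuft-like cells, and its median depth was 5220 UMIs against 4019. When the listed interferon genes were left out of the clustering, 86 of its 101 cells fell into 1 tuft-like cluster of 402 cells. Cells above 5000 CPM of the summed genes numbered 56 of 974 adult and 4 of 293 irradiated tuft-like cells.

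**Figure D3:**
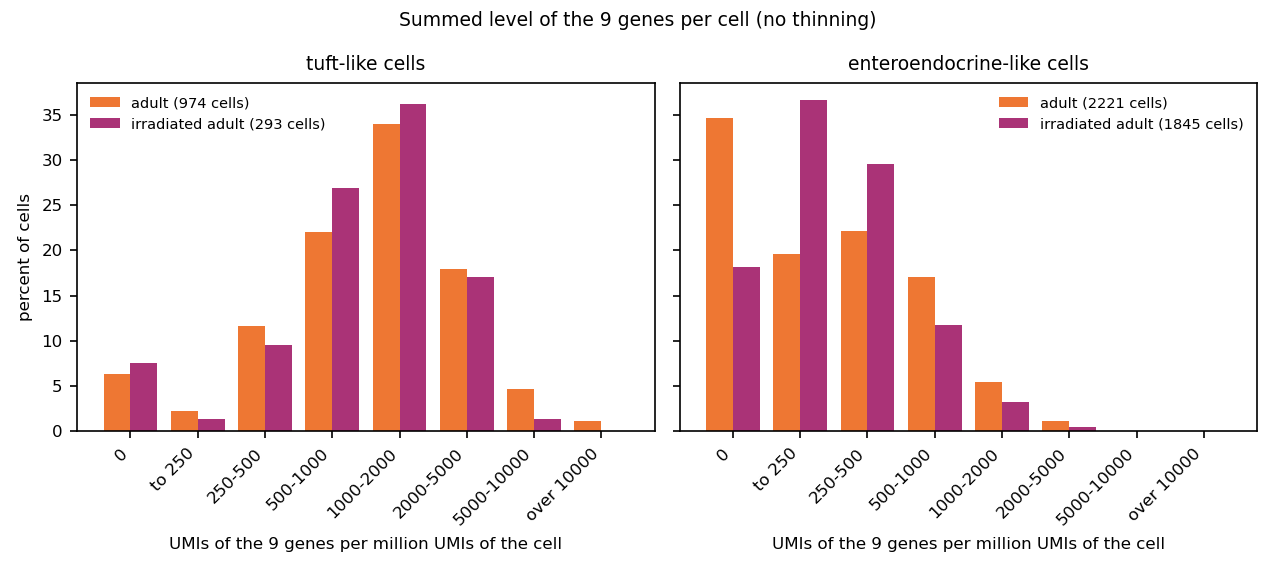
Share of tuft-like and enteroendocrine-like cells (percent) by summed level of the 9 genes per cell (CPM of that cell, no thinning) in the adult and irradiated adult libraries. The bins are of unequal width. In both tuft-like histograms the bin from 1000 to 2000 CPM holds the most cells, and 56 adult against 4 irradiated tuft-like cells lie above 5000 CPM.

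In the irradiated library the summed level over epithelial cells was lower than in the adult, with a log2 ratio of -0.54. Isg15 was the 1 gene of 9 past 2-fold lower, at -1.41 from 2688 and 1291 UMIs, beside 4.78% of 15157 features lower and 2.59% higher. Ifit1 was at -0.82, Bst2 at -0.73, Oasl2 at -0.72, Rsad2 at -0.48 and Irf7 at -0.45, all short of the threshold. Irf1 (-0.07) and Ifi35 (-0.13) were close to equal, and Ifit3 was at 0.56. The share of tuft-like cells moved with these values: it was 27.1% in the adult and 9.67% (8.64 to 10.8) in the irradiated library, where tuft-like cells gave 18.5% of the UMIs of the 9 genes. The sorting gate, which is not given, can set this share. The irradiated share also leaves out 124 cells that were first named tuft and then left unnamed. No adult cell first named tuft was left unnamed.

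Within tuft-like cells the summed log2 ratio was -0.31, and only Isg15 was past 2-fold, at -1.01 (525 and 259 CPM), beside 3.08% of features lower and 5.1% higher. Irf7 stood at 536 CPM in adult and 560 CPM in irradiated tuft-like cells, intervals 515 to 558 and 523 to 597, which overlap. Oasl2 was at 196 and 169 CPM and Bst2 at 159 and 106 CPM. The 124 irradiated cells first named tuft and left unnamed had lower levels of every member. Isg15 was at 103 CPM in them, Irf7 at 229, Oasl2 at 86.4, Bst2 at 27.0 and Ifit1 at 22.6 CPM. With these cells added back the summed log2 ratio was -0.81. That only Isg15 passed 2-fold, and that the Irf7 intervals overlap, leans on those cells being left out. When the adult Isg15-led cluster was left out, Isg15 was at 255 CPM in the adult, a log2 ratio of 0.02. That cluster stands out by Isg15 itself, so leaving it out lowers the adult level by construction. The Isg15-led cluster also held 268 of the 350 Ifit1 UMIs and 198 of the 286 Rsad2 UMIs of adult tuft-like cells. None of the named irradiated tuft-like cells was left out. Over all tuft-like cells the log2 ratio was -0.51 for Ifit1 and -0.03 for Rsad2. With the cluster left out of the adult arm alone they were 1.35 and 1.44, beside 5.42% of features higher and 2.88% lower. Both also lean on 1 irradiated cell that held 24 of 85 Ifit1 UMIs and 59 of 97 Rsad2 UMIs, and without it their irradiated levels were 38.4 and 23.9 CPM, against 20.3 and 21.8 CPM. Of the dissociation early response genes, 4 of 10 were past 2-fold higher in irradiated than in adult tuft-like cells, with a median log2 ratio of 0.89, and their part in these values was not tested.

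In enteroendocrine-like cells, the most numerous class of both adult libraries, the sum was 260 CPM in the adult and 268 in the irradiated library, and no member was past 2-fold (background 1.28% higher and 2.87% lower). Isg15 was at 10.2 and 9.59 CPM, Irf7 at 60.1 and 67.1, Irf1 at 80.5 and 86.6, and Ifi35 at 35.9 and 44.4. Rsad2, at 35.5 and 25.2 CPM, had a log2 ratio of -0.48, with an interval of its CPM ratio from 0.624 to 0.812. Ifit3 was at 0.51 on the same log2 scale, from 28 adult and 64 irradiated UMIs. With the clusters first named enteroendocrine added back, the irradiated sum was 289 CPM and no member was past 2-fold, beside 1.63% of features higher and 2.77% lower. Paneth-like cells had low levels in both, summing to 69.1 and 62.9 CPM. Their median depth was 2890 UMIs in the adult and 98365 in the irradiated library, with median mitochondrial shares of 3.42% and 0.77%. The part of these differences in the Paneth-like values was not tested. Isg15 (2.50 and 7.47 CPM) was past 2-fold higher and Rsad2 (3.74 and 1.22 CPM) past 2-fold lower there, from 7 members measured, beside 3.53% of features higher and 20.7% lower. For Isg15, 31 of 55 irradiated UMIs lay in 1 cell, and its level without that cell was 3.33 CPM. In the adult, T cell markers summed to 135 CPM in the Paneth-like cells, with 7 of 8 detected, against none in the irradiated ones, and their part in these levels was not tested.

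All epithelial cells other than tuft-like ones summed to 222 CPM in the adult and 267 CPM in the irradiated library, a log2 ratio of 0.27, opposite in sign to that over all epithelial cells. Isg15 was past 2-fold higher there (10.5 and 23.6 CPM, log2 ratio 1.09), beside 3.09% of features higher and 4.94% lower, and Irf7 was at 39.3 and 64.5 CPM (0.70). For Isg15, 163 of 876 irradiated UMIs came from 1 cell of an unnamed cluster led by Ccnd1 and Apoa4, and without the richest cell of each library the ratio was 0.95, short of the threshold. Irf7 kept 0.71 without its richest cells. Part of the irradiated signal lay in an unnamed cluster of 124 cells that met both the enteroendocrine and the tuft rules, with 103 CPM of Isg15 and 229 of Irf7. With it and every other cell first named tuft removed, the summed ratio was 0.16, Isg15 was at 0.83 and no member was past 2-fold, beside 2.62% of features higher and 4.92% lower. With both tuft-like and enteroendocrine-like cells left out, the remaining 402 adult and 893 irradiated cells summed to 183 and 267 CPM. Isg15 (10.8 and 36.9 CPM) and Irf7 (17.7 and 62.1 CPM) were past 2-fold higher in these, beside 14.3% of features higher and 10.3% lower. Of the 1181 irradiated Irf7 UMIs there, 417 lay in that cluster of 124 cells and 286 in another unnamed cluster, of 158 cells, that met both rules too. Those clusters held 187 and 96 of the 702 Isg15 UMIs, and the 1 cell named above held 163. Paneth-like cells were 223 of the 402 adult and 97 of the 893 irradiated cells.

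**Figure D4:**
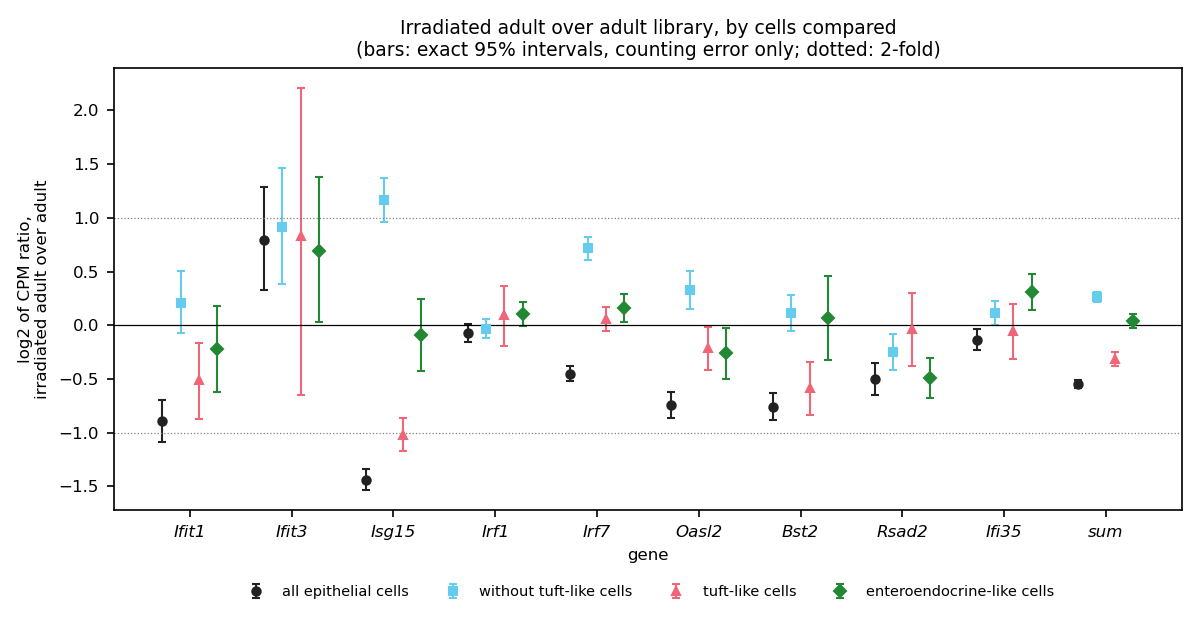
Log2 of the CPM ratio of the irradiated adult over the adult library for each gene and their sum, by the cells compared, with exact 95% counting intervals and dotted lines at 2-fold. The sum lies below 0 over all epithelial cells, above 0 without tuft-like cells, and close to 0 in enteroendocrine-like cells.

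Outside the tuft-like cells of the adult and irradiated libraries, the members did not all have their highest level in the same cells. Isg15, Irf7 and Oasl2 were then highest in the unnamed irradiated cluster of 124 cells (103, 229 and 86.4 CPM), and other members elsewhere. At E17.5, enterocyte-like cells held 83.9% of epithelial Ifit1 UMIs and 72.4% of those of Isg15 with 31.8% of all UMIs, though 25 of the 55 Isg15 UMIs lay in 1 cell. Irf7 was instead at 27.4 CPM in E17.5 enteroendocrine-like and 7.73 CPM in enterocyte-like cells, and Rsad2 at 5.43 and 0.10 CPM, so these genes leaned to different lineages. Bst2 was at 152 CPM (143 to 161) in pancreatic acinar-like cells of that library, close to the 159 CPM (147 to 171) of adult tuft-like cells, with 0.43 CPM of Isg15 beside it. The Spp1-led epithelial cells without a named lineage at E17.5 also had 88.5 CPM of Bst2. Irf1 was highest in E17.5 mesenchymal-like cells, at 180.4 CPM (149 to 217) from 95 cells, an interval that overlaps that of the next unit, an unnamed irradiated cluster of 77 cells (120.2 CPM, 77.0 to 179). Among the irradiated classes, goblet-like cells had 91.6 CPM of Irf7 and 43.2 CPM of Isg15, with 45 of 81 Isg15 UMIs in 1 cell and 19.6 CPM without it. Ifi35 had near-equal highest levels with overlapping intervals, 115 CPM in irradiated epithelial cells without a named lineage, 109 in adult tuft-like, 104 in irradiated tuft-like and 104 in adult enterocyte-like cells.

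Across 29 library-by-class units of at least 50 cells, members' levels went together to different degrees (Pearson r of log2(CPM + 10)). The units share 4 libraries and their depths, and genes marking tuft cells share the same high units, so r is a description. It was 0.95 for Irf7 with Oasl2, 0.93 for Isg15 with Oasl2 and 0.86 for Irf7 with Rsad2, but -0.05 for Irf1 with Bst2 and 0.09 for Bst2 with Rsad2. Of 13729 genes, those most like Oasl2 included Sh2d6, which is in the tuft marker list, and Gpr55 (0.98 each), and for Irf7 they were Cdhr2, Optn and Camta2 (0.96 each). Isg15 was most like Trim40, Rac2 and Sp100 (0.96 each), and Ifit1 most like Pstpip2, Zdhhc9 and Ddx58 (0.88 to 0.87). Irf1 was nearest to Nfkbia, the inhibitor of NF-kappa-B (0.86), then Gm12216 and Mon2. Rsad2 was most like Nipal3, Kat2b and Ccdc88b, Bst2 most like Capg, Adora1 and Eef2k, and Ifi35 most like Myh14, Lrp10 and Tap2. Ifit3, with 272 UMIs, was most like Tmem238l, Dhrs11 and Tmem106a (0.79 to 0.78).

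The ligands of the pathway were almost undetected. Of 10 interferon genes listed, 8 had no UMI in any library, Ifnk had 2 UMIs at E12.5 and Ifng had 1 in the adult. The receptor chains were detected throughout. In adult tuft-like and enteroendocrine-like cells, Ifnar1 was at 23.8 and 25.5 CPM and Ifnar2 at 49.9 and 37.0 CPM, neither past 2-fold. Of 12 receptor and signalling genes, 5 were past 2-fold higher in adult tuft-like cells, including Stat2 (80.0 and 17.2 CPM), Irf9 (55.1 and 13.4), Il10rb (119 and 45.2) and Ifnlr1 (6.29 and 1.25). Ifnlr1, from 29 UMIs in tuft-like cells, was named after its value was seen. Ifngr1, a chain of the interferon gamma receptor, was the 1 gene past 2-fold lower (15.4 and 52.0 CPM). The median log2 ratio was 0.56 for this list and -0.55 for all features.

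Of 12 nucleic acid sensors and adaptors, 5 were past 2-fold higher in adult tuft-like than enteroendocrine-like cells and 1, Tmem173, lower. The RNA sensor Ddx58 was at 71.8 and 12.03 CPM, its relative Dhx58 at 30.4 and 3.05, Zbp1 at 65.5 and 9.22, and Tlr3 at 34.7 and 7.97 CPM. Of 34 measured other interferon-induced genes, 25 were past 2-fold higher in tuft-like cells and none lower, with a median log2 ratio of 2.04. They included Sp100 (60.3 and 1.80 CPM), Mx1 (23.6 and 0.78), Oas2 (103 and 7.19) and Ifi27l2a (16.5 and 0.31), while Lgals3bp, at 630.5 and 452 CPM, was not past the threshold. Interferon gamma-leaning genes counted 7 higher and 2 lower of 10, such as Gbp3 (18.2 and 0.86 CPM). Regulators that restrain the response counted none higher and 2 lower of 7, with Socs3 at 1.30 and 18.4 CPM and Irf2bp2 at 46.0 and 166 CPM. Together with the members, this set of lists was chosen with earlier results known, so the counts describe these cells. They are read beside the background above, 10.3% of features higher and 33.9% lower.

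**Figure D5:**
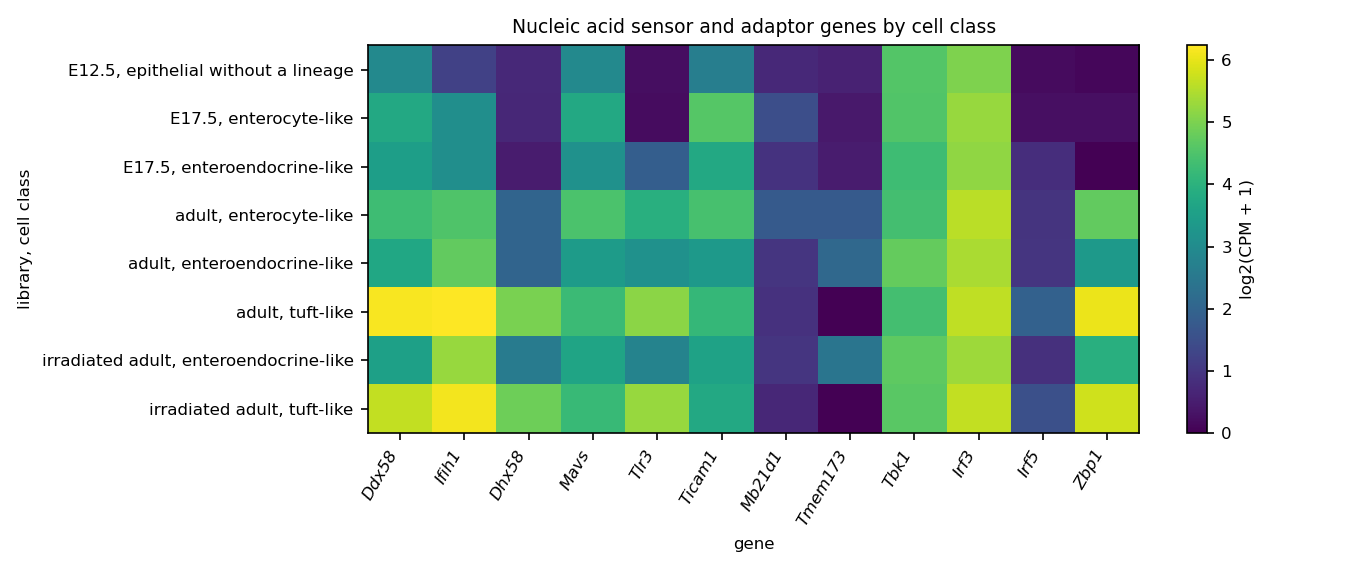
Level (colour, log2 of CPM + 1) of 12 nucleic acid sensor and adaptor genes in cell classes of the 4 libraries. In the adult rows Ddx58, Dhx58, Tlr3 and Zbp1 are higher in tuft-like than in enteroendocrine-like cells, whereas Irf3 (48.6 and 42.4 CPM) and Tbk1 (19.7 and 25.9 CPM) are not past 2-fold.

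Over the stages, the wider pathway moved in the direction of most members. Of its 89 genes in the files, 66 were measured between E12.5 and E17.5, and 22 were past 2-fold higher and 4 lower, beside the 13.2% and 14.5% of all features. The higher ones included Ifi27l2b (0.62 and 122 CPM), Epsti1, Samd9l and Il10rb (10.2 and 62.1 CPM). Ifit2, a relative of Ifit1, and Ifitm1, a membrane restriction factor, were lower instead: 25.5 and 0.87 CPM for Ifit2, and 21.8 and 0.72 CPM for Ifitm1. The other two were Ifi203 and Pias1, with log2 ratios of -1.05 and -1.06. From E17.5 to the adult library 42 of 77 were higher and 3 lower, beside 12.5% of all features higher and 12.6% lower. Those on the higher side included Zbp1 (0.14 and 17.5 CPM), Ifitm3 (9.65 and 189), Oas2 (0.45 and 19.8) and Sp100. Ifit1bl2, Ifitm2 (332 and 109 CPM) and Cxcl10 were the 3 lower ones. These counts include adult tuft-like cells. Without them, 14 of 35 other interferon-induced genes were past 2-fold higher, in place of 27 of 36. Receptor and signalling genes counted 1 higher and 1 lower of 12, in place of 4 and 0. Sensors and adaptors counted 4 higher in place of 5, and gamma-leaning genes 3 in place of 6. Over all features 11.7% were then higher and 11.5% lower. Between the adult and irradiated libraries 1 of 76 was higher, Cxcl10 (1.24 and 4.52 CPM), and 2 were lower, Ciita (2.82 and 0.28) and Ifi27l2a (3.09 and 0.49). Over all features 2.59% were higher and 4.78% lower, so neither count was above the background. Within tuft-like cells Ifitm1 was at 14.96 CPM in the adult and 0.63 in the irradiated library, the latter near the floor of detection. It was 1 of 2 past 2-fold lower among 33 other interferon-induced genes measured there, with 0 higher. Over all features there, 3.08% were lower and 5.1% higher.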

How the data were processed

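Per the submitters' processing notes, the authors used Cell Ranger 3.1.0 and mm10, and deposited raw UMI counts per gene and barcode, per the file headers, which were used as they stand. Library totals ran from 38648331 to 90674425 UMIs. From here on, barcodes with under 500 genes or over 20% mitochondrial UMIs were dropped, and the highest Scrublet scores (scanpy 1.11.5) were removed at an expected 0.8% per 1000 barcodes, because the automatic threshold marked few cells. Each library was clustered on 2000 variable genes, 30 components and 20 neighbours with Leiden (leidenalg 0.10.2, resolution 1). Clusters were called "-like" from marker lists. Clusters led by another class's genes, meeting both the enteroendocrine and the tuft rules, or shallow were left unnamed, by rules set after the clusters were seen. Class names may therefore differ from the study's. UMIs were summed per class, scaled to CPM and compared as log2(CPM + 1), with 2-fold and at least 10 UMIs in either population as the threshold. Intervals are exact Poisson, conditional binomial or Clopper-Pearson at 95%. No test was made with 1 library per group. The ratios, intervals and thinning were checked on simulated counts. The text names all 9 members. From each list it names up to 4 genes per direction past 2-fold with at least 50 UMIs, plus abundant ones, and the 3 genes most like each member. Members and lists were chosen with earlier results of these data known. Some items are not reported here.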

Additional observations from a re-analysis of the deposited data

How the results depend on the processing

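No paired analysis was possible because each group has 1 library. Depth limits the low genes most: Ifit3 rests on 19 to 122 UMIs per library, and intervals cover counting error only. The log2 ratio of the summed genes, E17.5 over E12.5 (1.54), was 1.66 with TMM factors, 1.89 as a mean of each cell's CPM, 1.33 with a pseudocount of 10 CPM, 1.64 over all kept cells and 2.44 without Irf1 and Bst2. For adult over E17.5 (2.19) it was 2.24 over every deposited barcode, 1.61 with a stricter cell filter, 2.40 as a mean of cells, 2.06 without mitochondrial and ribosomal genes, 2.09 with a pseudocount of 10, 2.08 over all kept cells, 2.07 without the top 1% of cells, 2.79 without Irf1 and Bst2 and 1.14 without tuft-like cells. For irradiated over adult (-0.54) it was -0.32 for every barcode, -0.32 for the stricter filter, -0.47 with TMM factors, -0.67 as a mean of cells, -0.62 without mitochondrial and ribosomal genes and -0.64 without Irf1 and Bst2. It turned positive without tuft-like cells (0.27) and without cells first named tuft (0.16), and Isg15 did so too, at 1.09 and 0.83 in place of -1.41. Within tuft-like cells (-0.31) it was -0.81 with the first cluster names. Within enteroendocrine-like cells (0.04) it was 0.14 at resolution 2, -0.14 as a mean of cells and 0.15 with the first names. Adult tuft-like over enteroendocrine-like (2.75) was 2.48 without the top 1% of cells and 2.36 as a mean of cells, and enteroendocrine-like adult over E17.5 (1.00) was 1.31 as a mean of cells. Apart from what each setting leaves out by construction, the cause was not tested.

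The percent of cells with 3 or more of the genes depended on the UMIs kept per cell, and the cells left out differ between these settings. Thinned to 1000 UMIs, thinned to 4000 UMIs and unthinned, it was 4.18, 21.6 and 26.2 for adult epithelial cells and 1.27, 10.6 and 32.3 for irradiated ones. It was 13.9, 60.7 and 56.7 for adult and 7.42, 53.3 and 54.9 for irradiated tuft-like cells. Enteroendocrine-like cells gave 0.41, 3.89 and 10.6 in the adult and 0.39, 5.07 and 25.0 in the irradiated library. E17.5 epithelial cells gave 0.62 at 4000 and 13.4 unthinned, and E12.5 gave 1.52 unthinned. Pathway genes past the threshold are given with the percent of all measured features in brackets. For E17.5 over E12.5 they were 8 lower (28.0%) at 1.5-fold, 10 higher (5.54%) and 2 lower (5.28%) with a pseudocount of 10, and 2 lower (12.1%) with TMM factors. For adult over E17.5 they were 6 lower (25.2%) at 1.5-fold, and 14 higher (4.60%) and 1 lower (5.49%) with a pseudocount of 10. For irradiated over adult they were 3 higher (7.81%) and 18 lower (12.2%) at 1.5-fold, and 0 higher (0.858%) and 0 lower (1.17%) with a pseudocount of 10. Of 12 called ratios of single genes between libraries, 6 lost the call with a pseudocount of 10, 2 with the stricter filter, 2 without the top 1% of cells, 1 without the richest cell, 1 over all kept cells and 1 as a mean of each cell's CPM. Isg15, irradiated over adult, lost it without first-named tuft cells and turned past 2-fold higher without tuft-like cells. Leaving out tuft-like cells, first-named tuft cells or the richest cell, and keeping the first names, were chosen after seeing the data.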
